A study of Mus musculus with 10 samples.

Results

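Transcript levels of 10 enzymes that make phosphatidylcholine, phosphatidylethanolamine and phosphatidylserine were examined in interscapular brown adipose tissue (iBAT) of mice lacking cardiolipin synthase in adipocytes. The genes are Pisd, Ptdss1, Ptdss2, Pemt, Pcyt1a, Pcyt2, Etnk1, Cept1, Chpt1 and Chka, chosen by name as enzymes of the major phospholipids other than cardiolipin. All 10 were found by symbol among the 15075 genes with deposited values, and all 10 passed the filter on low values. The study sequenced iBAT RNA of 5 Control and 5 AdCKO mice, each mouse giving 1 library. Both groups were C57BL/6 mice aged 20 weeks, housed at room temperature, and both carried the floxed Crls1 allele (Crls1 f/f). AdCKO mice also carried Adipoq-Cre, whereas Control mice had no Cre and are called wild-type in the sample labels. Adipoq-Cre is driven by the adiponectin promoter, which acts in white as well as brown adipocytes, so other cells of the depot keep an intact Crls1 gene and the depot was sequenced whole.

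Phosphatidylcholine and phosphatidylethanolamine are the main lipids of mammalian membranes, and both can be made by the Kennedy pathway. In that pathway a kinase phosphorylates choline or ethanolamine, a cytidylyl transferase couples the product to CDP, and a transferase in the endoplasmic reticulum or Golgi joins the head group to diacylglycerol. Phosphatidylserine is made by exchanging the head group of an existing phospholipid for serine, and the mitochondrial enzyme PISD decarboxylates it to phosphatidylethanolamine, which with cardiolipin is typical of the inner mitochondrial membrane. CRLS1, CHPT1 and CEPT1 belong to the same family of CDP-alcohol phosphotransferases.

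Promoters of 4 genes are shown because their genes had the largest changes in either direction, namely Chpt1, Ptdss2 and Pcyt2 among the genes that were lower in AdCKO iBAT and Chka, which was higher. Each sequence is the 250 bases before the deposited transcript start, read 5′ to 3′ on the gene's strand from mm9 (NCBIM37). They lie at chr10:87966716-87966965 (minus strand) for Chpt1, chr7:148316935-148317184 (plus strand) for Ptdss2, chr11:120479205-120479454 (minus strand) for Pcyt2 and chr19:3851523-3851772 (plus strand) for Chka. Capitals mark matches, on either strand, to any of 7 motifs described after the sequences.
Chpt1: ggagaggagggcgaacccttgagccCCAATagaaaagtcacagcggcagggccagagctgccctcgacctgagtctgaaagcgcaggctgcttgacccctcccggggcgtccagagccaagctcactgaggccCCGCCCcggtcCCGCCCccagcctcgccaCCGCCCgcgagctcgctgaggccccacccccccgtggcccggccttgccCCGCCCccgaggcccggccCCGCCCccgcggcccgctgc
Ptdss2: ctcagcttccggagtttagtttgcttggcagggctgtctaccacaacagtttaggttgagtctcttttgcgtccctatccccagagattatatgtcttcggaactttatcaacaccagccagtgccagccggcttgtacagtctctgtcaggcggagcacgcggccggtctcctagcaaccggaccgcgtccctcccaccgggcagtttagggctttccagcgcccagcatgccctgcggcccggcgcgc
Pcyt2: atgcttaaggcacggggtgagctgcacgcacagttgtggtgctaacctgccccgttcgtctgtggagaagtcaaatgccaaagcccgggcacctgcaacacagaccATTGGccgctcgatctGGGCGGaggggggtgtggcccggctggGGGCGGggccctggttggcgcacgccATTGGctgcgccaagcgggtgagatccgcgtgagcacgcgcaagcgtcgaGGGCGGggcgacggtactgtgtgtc
Chka: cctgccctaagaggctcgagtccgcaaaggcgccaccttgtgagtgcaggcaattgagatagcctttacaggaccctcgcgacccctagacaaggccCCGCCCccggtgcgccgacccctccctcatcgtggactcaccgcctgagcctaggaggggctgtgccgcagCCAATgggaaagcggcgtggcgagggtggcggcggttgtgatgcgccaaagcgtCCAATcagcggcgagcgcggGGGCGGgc

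The motifs were searched on both strands in the same window of all 15075 genes. The CCAAT box (CCAAT) was found in 4 of the 10 promoters (Pisd, Pcyt2, Chpt1 and Chka) against 35.3% of all promoters, and the GC box (GGGCGG) in 6 of 10 against 56.0%. Within the printed windows the Chpt1 promoter held 5 GC boxes and 1 CCAAT box, the Chka promoter 2 of each, and the Pcyt2 promoter 3 GC boxes and 2 CCAAT boxes. The Ptdss2 promoter held no match, so it stands in lower case throughout. The core of the ATF4 composite element (TGATGNAA) was found only in the Ptdss1 promoter among the 10, against 2.03% of all promoters, and a sterol element (TCACNCCAC) only in the Pcyt1a promoter, against 0.962%. The E-box (CACGTG), the NRF1 core (a palindrome of GCGCA and its reverse complement) and an ERR element (TCAAGGTCA) were found in 0 of the 10 windows, against 7.87%, 1.34% and 0.265% of all promoters. No match overlapped a match to another motif, although the 2 GC boxes of Pcyt1a overlapped each other. The GC content of the printed promoters was 75.6% for Chpt1, 59.6% for Ptdss2, 66.8% for Pcyt2 and 68.0% for Chka, against a median of 59.2% over all promoters.

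Values are normalized reads per kb of counted exon, which set genes of different length on a common scale. Crls1, the deleted gene, measured 812.8 to 1291 in Control and 192.6 to 249.2 in AdCKO libraries, so that 20.5% of the Control mean remained. Cre removes only exon 4, whereas reads were counted over 1907 bases of the transcript. The 20.5% is therefore not a measure of intact transcript. The brown adipocyte markers Ucp1 and Cidea were abundant in every library. The summed level of 10 adipocyte markers, these 2 among them, was 219300 to 248900 in Control libraries and 137000 to 160900 in AdCKO libraries. Fabp4 was the largest part of that sum (147200 and 108200 on average) and stood at 73.5% of Control in AdCKO. Ucp1 stood at 38.1% and Cidea at 34.2%, whereas Retn rose to 263%. Skeletal muscle markers summed to 127.4 to 195.1 in Control. They reached 7500, 26810 and 10530 in AdCKO replicates 1, 2 and 4 but only 238.8 and 253.6 in AdCKO replicates 3 and 5, so log2 fold changes of the 10 genes are also given without those 3 libraries. Normalized reads summed over all genes were between 7615403 and 8171138 in Control libraries and between 5419800 and 5843024 in AdCKO libraries.

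Of the 10 genes, 6 were lower in AdCKO iBAT (Chpt1, Ptdss2, Pcyt2, Pisd, Pcyt1a and Ptdss1) and 1 was higher (Chka) at an adjusted p below 0.01 in limma. Pemt, Etnk1 and Cept1 did not pass. The median log2 fold change of the 10 genes was −0.33, against −0.01 over the 11244 genes tested. Changes were common in this tissue: 53.6% of tested genes were called in either direction, 28.0% as lower and 25.6% as higher. Groups did not overlap for 6 of the 10 genes (Chpt1, Ptdss2, Pcyt2, Pisd and Pcyt1a lower, Chka higher), against 50.9% of tested genes (26.4% with AdCKO lower and 24.5% with AdCKO higher). Without the 3 AdCKO libraries with muscle markers, 6 genes were lower and 1 higher, against 19.7% and 18.8% of the 11097 genes tested in that fit (38.5% in either direction). In a bulk sample, fewer cells of a type and less RNA per cell cannot be told apart.

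**Figure D1:**
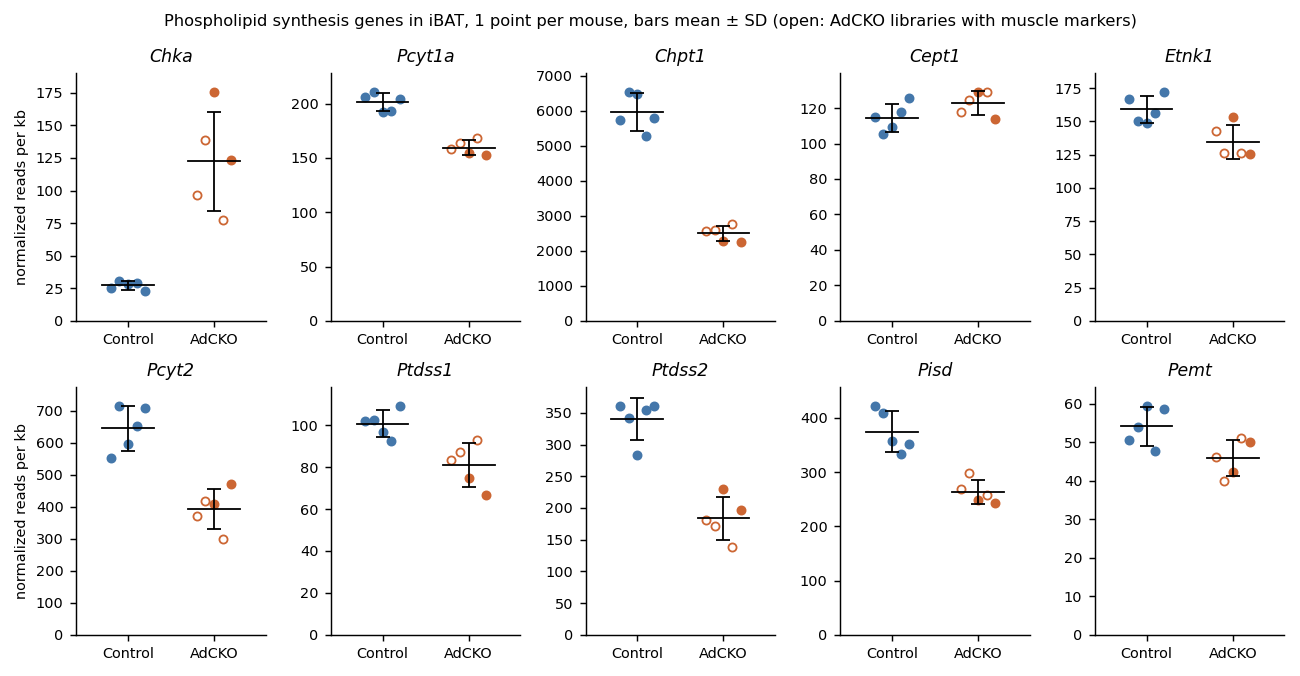
Level of each of the 10 genes (normalized reads per kb, linear axes starting at 0) in the 5 Control (blue) and 5 AdCKO (orange) mice, 1 point per mouse, with bars giving the mean ± SD. Open points mark the 3 AdCKO libraries with muscle markers. Chka rose from a range of 22.71 to 30.74 to a range of 77.25 to 176, Chpt1 fell in every AdCKO mouse, and the Cept1, Etnk1, Ptdss1 and Pemt groups overlap.

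In the choline branch of the Kennedy pathway, Chka rose and Pcyt1a fell under the authors' normalization. With equal library totals Pcyt1a stood at 0.14 on the log2 scale and did not pass. Chka (NM_001271496; mm9 chr19:3851773-3894369, plus strand) encodes choline kinase alpha, which phosphorylates choline and also accepts ethanolamine. Its level was 25.16, 30.74, 28.03, 29.23 and 22.71 in Control replicates 1 to 5 and 96.51, 138.7, 176, 77.25 and 123.6 in AdCKO replicates 1 to 5. Every AdCKO mouse lay above every Control mouse, and the AdCKO mice differed more among themselves, with a coefficient of variation of 31.2% against 11.9%. The mean rose 4.5-fold, from 27.2 ± 3.23 to 122.4 ± 38.3 (SD, n = 5 each), which is 2.08 on the log2 scale (SE 0.185, adjusted p = 1.18e-06 in limma). This was the 302nd largest increase among the 11244 tested genes. AdCKO replicates 3 and 5, the libraries without high muscle markers, had Chka levels of 176 and 123.6, and the log2 fold change without the other 3 AdCKO libraries was 2.41. An annotated gene on the opposite strand, Gm16066, shares 74 exon bases with Chka and was not found by symbol among the genes with deposited values.

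Pcyt1a (NM_009981; chr16:32431007-32475151, plus strand) encodes CTP:phosphocholine cytidylyl transferase alpha, which sets the pace of the choline branch in many cells. It measured 206.6, 211.2, 192.2, 193 and 204.1 in Control and 158.1, 163.9, 154.4, 168.8 and 152.7 in AdCKO mice. The groups did not overlap, and both were tight, with coefficients of variation of 4.2% and 4.19%. The mean of 201.4 ± 8.46 fell to 159.6 ± 6.69 (log2 fold change −0.33, SE 0.0574, adjusted p = 0.000258), and the log2 fold change was −0.39 without the 3 libraries with muscle markers.

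In the ethanolamine branch the cytidylyl transferase fell and the kinase did not pass the test. Pcyt2 (NM_024229; chr11:120471401-120479204, minus strand) encodes CTP:phosphoethanolamine cytidylyl transferase. Its level was 552.5, 715.9, 595.1, 651.8 and 708.1 in Control and 369.4, 416.5, 407.8, 300.4 and 469.8 in AdCKO mice. The highest AdCKO value stayed below the lowest Control value, and the mean dropped to 60.9% of Control (log2 fold change −0.72, SE 0.117, adjusted p = 0.000161). Without the 3 libraries with muscle markers the log2 fold change was −0.55. Etnk1 (NM_029250; chr6:143115750-143157066, plus strand), an ethanolamine kinase, measured 167.1, 150.5, 149.1, 156.6 and 172.4 in Control and 143, 126.1, 153.2, 125.9 and 125.5 in AdCKO mice. Only AdCKO replicate 3 reached the Control range. The log2 fold change of Etnk1 was −0.24 (95% interval −0.41 to −0.07, adjusted p = 0.0145). Without AdCKO replicate 3 it was −0.29 and passed, at an adjusted p of 0.00462, whereas without the 3 libraries with muscle markers it was −0.20 (adjusted p = 0.162).

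The last step of the Kennedy pathway held the most abundant transcript of the 10. Chpt1 (NM_001146690; chr10:87935558-87966715, minus strand) encodes cholinephosphotransferase, which makes phosphatidylcholine in the Golgi. It measured 5741, 6549, 6485, 5278 and 5804 in Control and 2576, 2590, 2266, 2780 and 2265 in AdCKO mice. The groups lay far apart, and each had a coefficient of variation of 9.01%. The mean fell from 5971 ± 538 to 2495 ± 225, or to 41.8% of Control (log2 fold change −1.26, SE 0.0925, adjusted p = 2.71e-07). Chpt1 ranked 79th by level among tested genes in Control and 132nd in AdCKO iBAT, and its decrease was the 373rd largest. Its lowest levels were in AdCKO replicates 3 and 5, and the log2 fold change was −1.39 without the 3 libraries with muscle markers. On the opposite strand Sycp3, a gene of the meiotic chromosome axis, shares 420 annotated exon bases with Chpt1. It fell from 180.7 ± 29.2 to 83.0 ± 10.4 (log2 fold change −1.10, adjusted p = 1.04e-05). Chpt1 was counted over 1381 bases, against 3898 exon bases of its annotated transcript. Whether the shared bases were among those counted was not tested. Counting by strand is not described in the sources used here, so any reads counted there cannot be assigned to either gene.

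Cept1 (NM_133869; chr3:106305178-106350720, minus strand) encodes the dual choline and ethanolamine phosphotransferase of the endoplasmic reticulum. It measured 114.8, 105.3, 109.5, 117.5 and 125.7 in Control and 117.6, 124.7, 128.8, 129.3 and 114 in AdCKO mice. The groups overlapped, with a log2 fold change of 0.10 (95% interval −0.05 to 0.25, adjusted p = 0.204) and of 0.08 without the 3 libraries with muscle markers (adjusted p = 0.532). Cept1 shares annotated exon bases with genes on the opposite strand, 771 with Dennd2d and 110 with Dram2. It was counted over 2038 bases, against 2814 exon bases of its annotated transcript. Dennd2d measured 18.0 and 17.9 on average in Control and AdCKO, whereas Dram2 fell from 287 to 205.6 (log2 fold change −0.48, adjusted p = 0.00033). Ept1, the ethanolamine phosphotransferase, measured 24.4 ± 1.81 in Control and 27.2 ± 0.436 in AdCKO (log2 fold change 0.16, adjusted p = 0.0767). Chpt1 made up 97.7% ± 0.302 of the summed level of Chpt1, Cept1 and Ept1 in Control and 94.3% ± 0.463 in AdCKO iBAT, without overlap (p = 0.0079 in an exact two-sided permutation of the mice, the smallest p it can give).

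Both phosphatidylserine synthases were lower, by unequal amounts. Ptdss2 (NM_013782; chr7:148317185-148342053, plus strand) encodes the synthase that exchanges the head group of phosphatidylethanolamine for serine. It measured 360.6, 342.3, 283.9, 354 and 361.6 in Control and 180.8, 171.5, 229.8, 138.1 and 197 in AdCKO mice. The groups did not overlap, although Control replicate 3 lay below the other 4 Control mice. The mean dropped to 53.9% of Control (log2 fold change −0.90, SE 0.122, adjusted p = 3.63e-05). The 2 highest AdCKO values were in replicates 3 and 5, and the log2 fold change was −0.67 without the 3 libraries with muscle markers.

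Ptdss1 (NM_008959; chr13:67033766-67099337, plus strand) encodes the synthase that acts on phosphatidylcholine. It measured 102.2, 102.3, 96.98, 92.35 and 109.4 in Control and 83.44, 87.39, 74.7, 92.95 and 66.71 in AdCKO mice. AdCKO replicate 4 exceeded the lowest Control mouse, so the groups overlapped. The log2 fold change was −0.32 (SE 0.0911, adjusted p = 0.00876), and the call was lost when Control replicate 1, 2, 3 or 5 or AdCKO replicate 1, 3 or 5 was left out, with log2 fold changes of −0.33 to −0.25 and adjusted p-values of up to 0.0249. Here the lowest AdCKO values, not the highest, were in replicates 3 and 5, and the log2 fold change without the 3 muscle-marked libraries was −0.50. On the opposite strand Mterfd1, not found by symbol among the genes with deposited values, shares 229 annotated exon bases with Ptdss1.

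Pisd (NM_177298; chr5:33078962-33128275, minus strand) encodes phosphatidylserine decarboxylase. It measured 422.8, 408.2, 358.1, 332.7 and 352.6 in Control and 269.4, 298.8, 248.8, 257.4 and 243.4 in AdCKO mice. Every AdCKO mouse lay below every Control mouse. The mean fell from 374.9 ± 38.6 to 263.5 ± 22.0, or to 70.3% of Control (log2 fold change −0.50, SE 0.0839, adjusted p = 0.0002), and the log2 fold change was −0.60 without the 3 libraries with muscle markers. An annotated gene on the same strand, C330019G07Rik, shares 1085 exon bases with Pisd.

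Pemt (NM_001290011; chr11:59784116-59859991, minus strand) encodes the enzyme that methylates phosphatidylethanolamine to phosphatidylcholine, a route best known from liver. Only Chka was lower among the 10 genes in Control, and Pemt ranked 6364th by level among tested genes. It measured 50.55, 54.06, 59.53, 47.77 and 58.62 in Control and 46.25, 40.04, 42.16, 51.01 and 50.06 in AdCKO mice. The groups overlapped, and the log2 fold change of −0.23 (95% interval −0.43 to −0.04) did not pass the threshold (adjusted p = 0.0379). It was −0.23 without the 3 libraries with muscle markers (adjusted p = 0.153).

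Multiplying a library by a constant leaves the ratio of 2 genes within it unchanged, so 6 ratios were compared with exact two-sided permutation tests, adjusted over the 6 at a threshold of 0.05. Quantile normalization, which is not a multiplication, does change them. Ethanolamine kinase against choline kinase (Etnk1/Chka) fell from 5.96 ± 1.12 to 1.18 ± 0.35, without overlap (log2 difference −2.36, permutation p = 0.0079, adjusted p = 0.0238). The ratio of Cept1 to Chpt1 rose from 0.0194 ± 0.00278 to 0.0495 ± 0.00448, also without overlap (log2 difference 1.36, permutation p = 0.0079, adjusted p = 0.0238). After quantile normalization the Cept1/Chpt1 difference was 0.68, at the same adjusted p. The smallest p that this test can give is 0.0079. Background shares over all pairs of genes were not computed, and these ratios restate changes of single genes already given.

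The remaining ratios moved less. Pcyt2/Pcyt1a fell from 3.20 ± 0.327 to 2.48 ± 0.473 (log2 difference −0.39, exact permutation p = 0.0159, adjusted p = 0.0318), and Ptdss2/Ptdss1 from 3.39 ± 0.331 to 2.33 ± 0.674 (−0.59, exact permutation p = 0.0238, adjusted p = 0.0357). In both, the groups overlapped and the highest AdCKO ratios were in replicates 3 and 5. The adjusted p of Pcyt2/Pcyt1a rose to 0.0634 without Control replicate 2, 4 or 5 or AdCKO replicate 1, 2 or 4, and that of Ptdss2/Ptdss1 to 0.0714 without Control replicate 1, 2, 4 or 5 or AdCKO replicate 1, 2 or 4. Without the 3 libraries with muscle markers, both log2 differences were −0.16, and a test of 5 mice against 2 cannot pass. After quantile normalization Pcyt2/Pcyt1a (−0.27) and Ptdss2/Ptdss1 (−0.45) did not pass, both at an adjusted p of 0.131. Pisd/Pcyt2 was 0.589 ± 0.107 in Control and 0.686 ± 0.128 in AdCKO (exact permutation p = 0.222, adjusted p = 0.266). Pemt/Pcyt1a was 0.269 ± 0.0283 and 0.288 ± 0.0314 (exact permutation p = 0.333, adjusted p = 0.333).

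**Figure D2:**
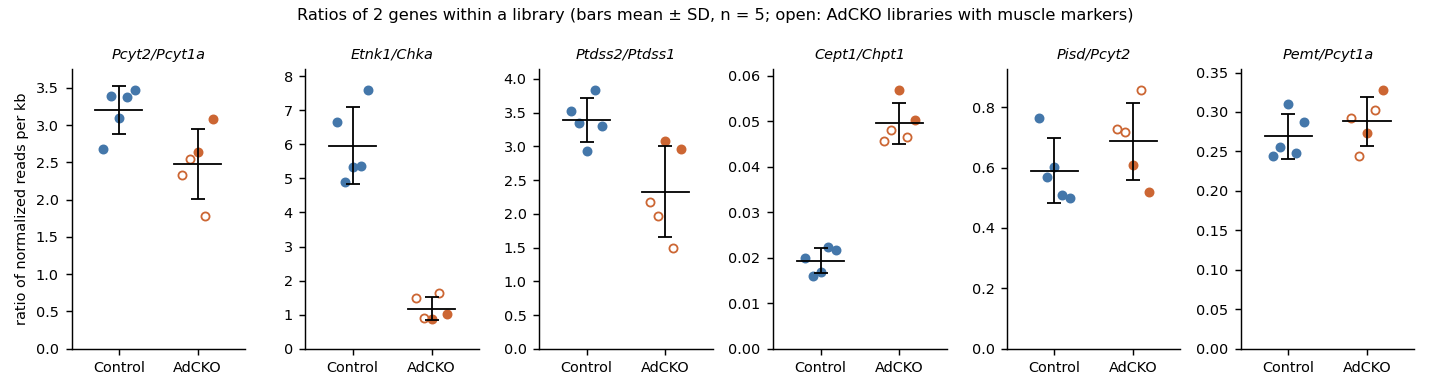
The 6 ratios within each library (linear axes starting at 0, no unit) in 5 Control and 5 AdCKO mice, with bars giving the mean ± SD and open points marking the 3 AdCKO libraries with muscle markers. Etnk1/Chka and Cept1/Chpt1 separate the groups, while for Ptdss2/Ptdss1 the 2 filled AdCKO points lie at the lower end of the Control range.

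In Control iBAT the levels per kb ran in the order Chpt1, Pcyt2, Pisd, Ptdss2, Pcyt1a, Etnk1, Cept1, Ptdss1, Pemt and Chka. Neighbours in that order did not overlap, except Pisd with Ptdss2 and Cept1 with Ptdss1. In AdCKO iBAT the order was the same apart from Chka, which moved from last place to between Cept1 and Ptdss1. There, the range of each gene from Ptdss2 down to Chka overlapped that of the next one below it. Within single libraries, Pcyt1a still exceeded Etnk1 in 5 of 5 AdCKO mice, whereas Ptdss2 exceeded Pcyt1a in 4, Etnk1 exceeded Cept1 in 4, Cept1 exceeded Chka in 2 and Chka exceeded Ptdss1 in 4.

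The summed level of the 10 genes fell from 7988 ± 549 to 4002 ± 152, or to 50.1% of Control, and without Chpt1 from 2017 ± 104 to 1506 ± 108, or to 74.7%. The sum over all genes also fell, to 73.3% of Control. As a share of it, the 10 genes made up 0.228% ± 0.0116 in Control and 0.156% ± 0.00783 in AdCKO (exact two-sided permutation p = 0.0079), and the 9 genes without Chpt1 made up 0.0576% ± 0.00251 and 0.0587% ± 0.0043 (exact two-sided permutation p = 0.675). Chpt1 alone made up 74.7% ± 1.94 of the sum in Control and 62.3% ± 3.62 in AdCKO. The more abundant of the 10 genes in Control had the lower log2 fold changes, with a Spearman rho of −0.903 across the 10 genes, which share the same libraries. Over all tested genes rho was −0.481, and both quantities use the Control values.

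**Figure D3:**
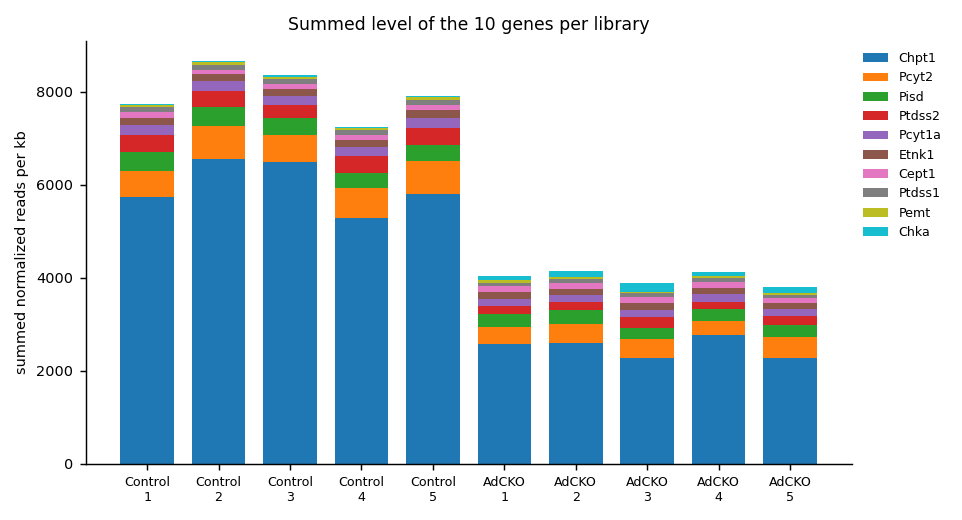
Stacked level of the 10 genes (summed normalized reads per kb, axis starting at 0) in each library. Chpt1 takes most of every bar, and the bars fall from between 7253 and 8669 in Control to between 3808 and 4158 in AdCKO.

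How the libraries are scaled changed which of the 10 genes were called. When every library was given the same total, the median log2 fold change of all tested genes moved up by 0.47, and 60.6% of tested genes were called higher and 9.77% lower. Of the 10 genes, Chpt1 (−0.78) and Ptdss2 (−0.42) were then still lower and Chka (2.55) and Cept1 (0.58) higher. Ptdss1, Pemt, Pcyt1a and Etnk1 changed sign, and Pisd was at −0.02. Because equal totals shift nearly all genes by a similar amount, values relative to the new median of all genes stay near those under the authors' normalization by construction, for example −1.24 for Chpt1 and 2.09 for Chka. After quantile normalization, Chka was higher and 7 genes were lower (against 22.5% and 31.1% of tested genes), with Pemt passing (log2 fold change −0.36, adjusted p = 0.00426) and Chpt1 at −0.54.

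**Figure D4:**
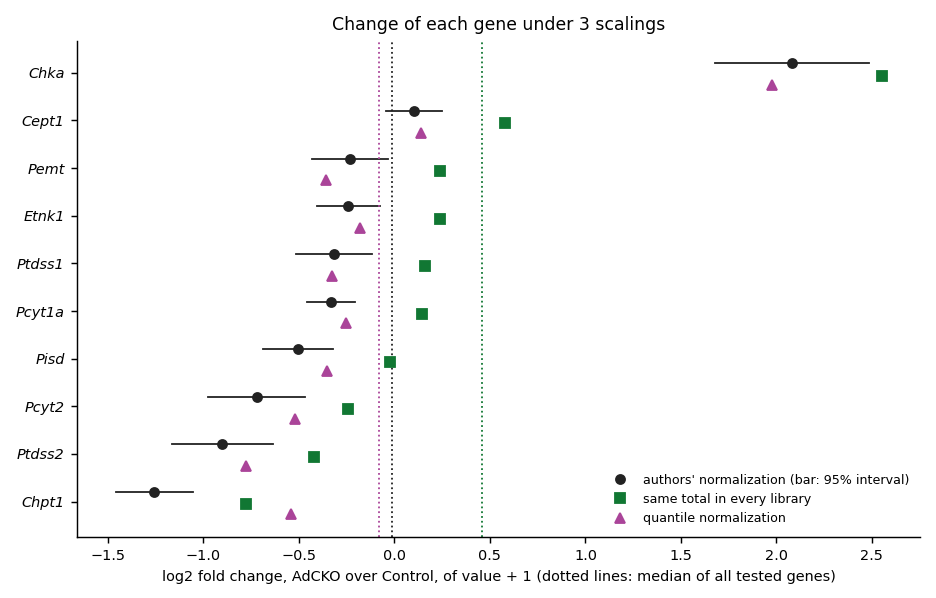
Log2 fold change of each gene (AdCKO over Control, of value + 1) under the authors' normalization (black, with 95% intervals), the same total in every library (green squares) and quantile normalization (purple triangles). Dotted lines give the median of all tested genes under each scaling. Chka lies right of all 3 lines and Chpt1 left of them, whereas the genes between −0.23 and −0.33 cross 0 when totals are made equal.

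Markers of other cell types differed between the groups. Of 10 macrophage markers, 9 were higher in AdCKO, and their summed level was 432.9 to 1322 in Control libraries and 6278 to 8378 in AdCKO libraries. All 5 fibroblast markers were higher (885.8 to 1168 against 3571 to 5033), as was 1 of 6 endothelial markers (1433 to 1798 against 1471 to 1990). Of 10 skeletal muscle markers, 2 were called higher. Of 10 adipocyte markers, 7 were lower and 1 (Retn) was higher. Over all tested genes, 28.0% were lower and 25.6% higher. The part of these cell types in the changes of the 10 genes was not tested.

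Genes of choline uptake, release and oxidation moved in both directions. Of 14 listed, 7 were tested, and 4 were lower and 2 higher, with a median log2 fold change of −0.78. The shares over all tested genes were 28.0% lower and 25.6% higher. With equal library totals, 3 were lower and 3 higher, against 9.77% and 60.6% of all tested genes. Chdh, the mitochondrial dehydrogenase that consumes choline by oxidizing it, fell from 235.9 ± 13.4 to 69.5 ± 7.67 (log2 fold change −1.75, adjusted p = 1.13e-08). The choline transporter gene Slc44a1 fell (−0.77, but −0.30 and not called with equal totals), as did the glycerophosphodiesterase gene Gde1 (−0.89). The related Slc44a2 (0.76) and Gdpd1 (1.35) rose. Gdpd1 averaged 4.94 in Control and 14.1 in AdCKO, so it passed the filter on low values only through the group where it was higher.

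The methyl donor cycle serves the methylation by PEMT. Among 6 tested genes of the cycle and their relatives, 3 were lower and 1 was higher (median −0.32). The shares over all tested genes were 28.0% lower and 25.6% higher. Mat2a, which makes S-adenosylmethionine, rose from 531.7 ± 54.3 to 862.1 ± 100.3 (log2 fold change 0.69, adjusted p = 3.97e-05). Gnmt, a methyltransferase that consumes it, fell (−0.71), together with Ahcyl1 (−1.49) and Ahcyl2 (−0.68), relatives of adenosylhomocysteinase. Gnmt (13.7 in Control, 7.96 in AdCKO) passed the filter on low values only through Control. Ahcy, the adenosylhomocysteinase gene (0.19, limma adjusted p = 0.14), and Mat2b (0.05, limma adjusted p = 0.592) did not pass. With equal library totals Gnmt (−0.27) and Ahcyl2 (−0.20) were not called. Of the list, 1 gene was then lower and 3 higher, against 9.77% and 60.6% of all tested genes.

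Of 12 tested genes that move phospholipids between membranes, 8 were lower and 1 was higher (median −0.57). The shares over all tested genes were 28.0% lower and 25.6% higher. The phosphatidylcholine carrier gene Stard7 fell from 463.5 ± 34.0 to 301.4 ± 8.54 (log2 fold change −0.62), and its relative Stard10 fell by 1.25 on the log2 scale. Mfn2, which acts in mitochondrial fusion and at contacts with the endoplasmic reticulum, also fell (−0.64). Osbpl8, which carries phosphatidylserine to the plasma membrane, rose (0.76), whereas its relative Osbpl5 fell (−0.73). Their Control means were 31.28 for Osbpl8 and 83.09 for Osbpl5. With equal totals, Stard7 (−0.14), Mfn2 (−0.16) and Osbpl5 (−0.26) were not called. Of the list, 2 genes were then lower and 3 higher, against 9.77% and 60.6% of all tested genes.

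Phospholipases and related enzymes of phosphatidylcholine and phosphatidylethanolamine breakdown went both ways, with 4 higher and 5 lower of 13 tested (median −0.21). The shares over all tested genes were 25.6% higher and 28.0% lower. Pla2g4a, the cytosolic phospholipase A2 that releases arachidonic acid, rose from 3.68 ± 0.429 to 12.3 ± 1.56 (log2 fold change 1.51, adjusted p = 6.7e-07). Pla2g4a and Pld1 (7.59 in Control, 10.9 in AdCKO) passed the filter on low values only through AdCKO, the group where they were higher. With such Control means, only a rise could bring them into the test. Pld2 (0.62), Pld1 (0.49) and Pla2g15 (0.26) also rose, although Pld1 (0.51, adjusted p = 0.0349) and Pla2g15 (0.10, adjusted p = 0.369) were not called without the 3 libraries with muscle markers. Lypla1 (−0.89) and Pnpla6 (−0.61) fell, although Pnpla6 was not called with equal library totals (−0.14). Of 4 tested reacylation enzymes, Lpcat4 (0.53) and Lpgat1 (0.51) rose and Lpcat3 (−0.02) and Lpcat1 (−0.01) did not pass. Without the 3 libraries with muscle markers both calls were lost, at 0.45 (adjusted p = 0.0183) for Lpcat4 and 0.31 (adjusted p = 0.0535) for Lpgat1.

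Of 6 other tested enzymes of synthesis, 1 was lower and 1 higher, against 28.0% and 25.6% of all tested genes. Lpin1, a phosphatidate phosphatase that makes diacylglycerol, fell from 1105 ± 159 to 764.4 ± 131 (log2 fold change −0.53, adjusted p = 0.00241), and its relative Lpin3 rose (0.74). Lpin1 was not called without the 3 libraries with muscle markers (−0.43, adjusted p = 0.0579) or with equal totals (−0.05). The second choline kinase gene, Chkb, measured 288.8 ± 35.2 in Control and 217.7 ± 68.4 in AdCKO (log2 fold change −0.45, adjusted p = 0.0337), counted over only 139 bases. Chka made up 8.67% ± 1.24 of the summed level of both kinases in Control and 35.9% ± 3.70 in AdCKO, a share that was chosen after the values were seen. These lists were drawn up by function, and no test compared a list with other genes.

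**Figure D5:**
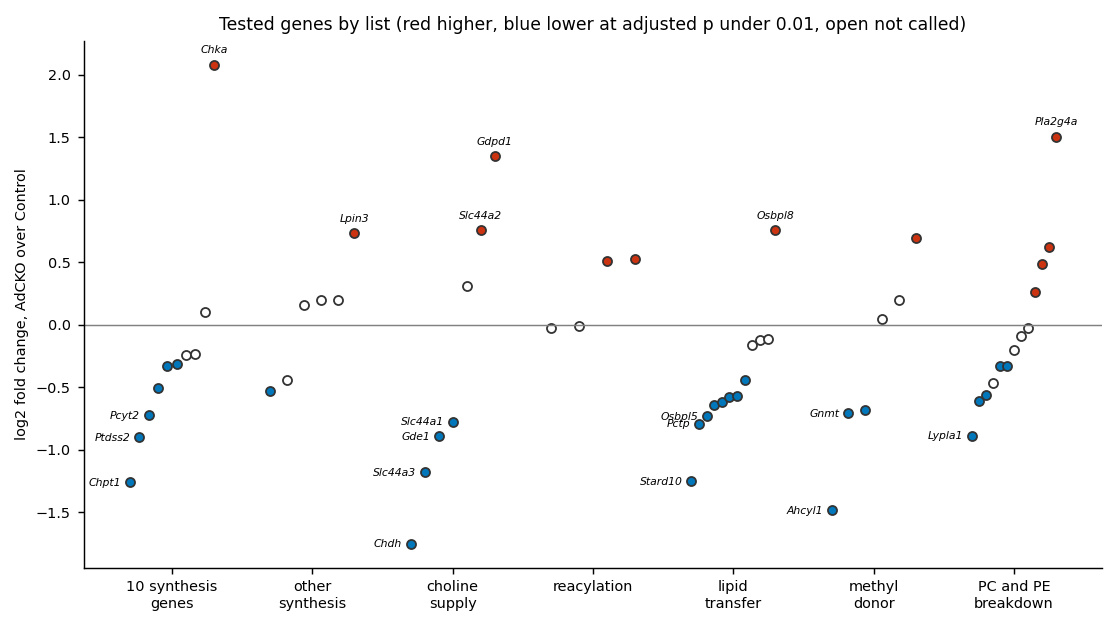
Log2 fold change (AdCKO over Control, of value + 1) of each tested gene by list, with 1 point per gene in order of its value (red higher and blue lower at adjusted p below 0.01, open not called). Names mark called genes whose change exceeds 0.7 in size. Under the authors' normalization most lipid transfer points lie below 0, and Chdh is lowest at −1.75.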

How the data were processed

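Groups came from the sample labels (5 Control and 5 AdCKO mice, polyA RNA-seq). The authors aligned reads to mm9 with STAR, built tag directories with HOMER, took exon counts with iRNA-seq and normalized these with DESeq2 (versions are not given in the sources used here). The values deposited by the authors are a signal, namely normalized reads divided by counted exon length in kb, for 1 RefSeq transcript per gene. They hold no 0 (smallest 0.0532) and no steps of whole reads. This may mean that they were moderated between samples, which was not tested and would understate fold changes of low genes. Library depth is unknown, so precision is the spread between mice. The authors' own fold changes, adjusted p-values and lists of called genes were not used.

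With a pseudocount of 1, genes averaging at least 10 in either group (11244) were tested in limma 3.58.1 (R 4.3.3) with an intensity trend, two-sided, adjusted by Benjamini-Hochberg over tested genes at a threshold of 0.01. Intervals are 95%, and fold changes refer to log2(value + 1). In simulated data for this comparison (10939 genes), 35 of 66 genes changed by 0.5, 59 of 67 changed by 1 and 67 of 67 changed by 2 on the log2 scale were recovered, with 0 false calls. No other genes were changed there, a far smaller share than was called in the real data, and noise was independent between genes. These rates therefore do not carry over to the real comparison. Ratios and shares were tested with exact permutations in scipy 1.17.1 (threshold 0.05 for ratios). Exon overlaps come from GENCODE vM1 on NCBIM37, which is mm9.

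The members and lists were chosen with earlier results of these data known. Named are all members, Crls1, genes overlapping a member, the 4 genes of each other list with the smallest p, and called genes against a list's majority. Ahcy, Mat2b, Osbpl5 and some adipocyte markers are named in addition. Alternatives were pseudocounts of 0.1 and 10, no filter, a filter at an overall mean of 1, equal totals, quantile normalization, limma with no or a robust trend, a replicate block, an adjusted p of 0.05 and every library left out in turn. Added after seeing the data were a skeletal muscle covariate, a fit without 3 AdCKO libraries and quantile-normalized ratios.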

Additional observations from a re-analysis of the deposited data

Results flagged for a closer look

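Of 40 sets of 5 values examined for a sample far from the others, 1 was flagged, where chance flags about 1 in 20. In Control mice the lowest Ptdss2 level was 283.9, in replicate 3, and its gap to the next sample was 0.752 of the group's range. Without that mouse the log2 fold change of Ptdss2 was −0.97 (limma adjusted p = 3.42e-05), against −0.90 with it.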

How the results depend on the processing

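Chka was higher and Chpt1 and Ptdss2 were lower at an adjusted p below 0.01 under every alternative run, and the largest adjusted p was 0.00781, for Ptdss2 with equal totals.

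With equal library totals, higher calls numbered 6811 and lower calls 1098, or 86.1% and 13.9% of calls against 47.7% and 52.3%. Of the 10 genes 2 were higher and 2 lower. Cept1 passed at 0.58, Pcyt2 (−0.24) and Pisd (−0.02) no longer did, and Etnk1 (0.24), Pemt (0.24), Ptdss1 (0.16) and Pcyt1a (0.14) changed sign. Higher and lower calls became 4 and 0 for other synthesis enzymes, 3 and 3 for choline supply and 3 and 2 for lipid transfer. They became 3 and 1 for the methyl donor list, and 7 and 1 for breakdown. After quantile normalization Pemt passed (−0.36), other synthesis enzymes had 2 higher and 0 lower, reacylation 1 higher and breakdown 3 lower. Its log2 ratios, added after seeing the data, were −0.27 for Pcyt2/Pcyt1a and −0.45 for Ptdss2/Ptdss1, both no longer below the threshold of 0.05, and −0.11, reversed, for Pemt/Pcyt1a. Ptdss1 (−0.32) lost its call with no filter, without the trend and with the replicate block. With no filter or a mean of at least 1, where more genes were tested, choline supply and reacylation each had 4 higher and other synthesis enzymes 2. At an adjusted p of 0.05, other synthesis enzymes had 2 lower.

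With the skeletal muscle score as a covariate, breakdown had 2 higher and 3 lower, other synthesis enzymes 0 lower and reacylation 1 higher. Without the 3 AdCKO libraries with muscle markers, breakdown had 2 higher and 3 lower, lipid transfer 5 lower, other synthesis enzymes 0 lower and reacylation 0 higher. Log2 ratios were then 1.48 for Cept1/Chpt1, −2.65 for Etnk1/Chka, −0.16 for Pcyt2/Pcyt1a and Ptdss2/Ptdss1, and −0.05, reversed, for Pisd/Pcyt2, in a test too small to pass.

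Leaving out each library in turn gave −0.37 to −0.25 for Ptdss1, −0.29 to −0.21 for Etnk1, −0.47 to −0.27 for Pcyt2/Pcyt1a (no longer below 0.05 in 6 of 10), −0.70 to −0.44 for Ptdss2/Ptdss1 (in 7 of 10), 2 to 4 higher calls for breakdown and 1 to 2 lower calls for other synthesis enzymes.

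Whether replicate numbers pair the mice is not stated in the sources used here, and the values showed no sign of it. Deviations of same-numbered mice correlated between −0.268 and 0.098, and 0 of 5 correlated best with their own number. With the replicate block, breakdown had 2 higher and 3 lower. Sign flips of paired differences, whose smallest p is 0.0625, left Cept1/Chpt1 (1.36), Etnk1/Chka (−2.36), Pcyt2/Pcyt1a (−0.39) and Ptdss2/Ptdss1 (−0.59) above the ratio threshold of 0.05. The cause of these differences was not tested. Depth before normalization is unknown, so no counting limit could be set.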
